A study of Mus musculus with 12 samples.

Results

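The axoneme is the microtubule core of cilia and of the sperm tail. Outer and inner dynein arms on its doublet microtubules drive sliding, radial spokes and the central apparatus control the arms, and tektins and other lumen proteins line the inside of the doublets. In the testis most of these genes are switched on in meiotic and haploid germ cells, where the flagellum is built, and undifferentiated spermatogonia carry no flagellum. The genes described here are those of the deposited expression table whose symbols begin with *Dnah*, *Dnai*, *Dnal*, *Cfap*, *Tekt*, *Rsph* or *Spag* followed by a number or subunit letter, which gave 76 of 21859 genes. The choice used names and no measured value. It also took 6 *Spag* genes that code for proteins outside the axoneme. These are counted among the 76 and described as a group of their own.

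RNA was measured in sorted GFRa1+/KIT- spermatogonia, the undifferentiated fraction that holds the stem cells, in 5 control and 7 cryptorchid libraries of mouse testis. The left testis of adult male mice carrying a GFRa1-EGFP reporter was fixed to the abdominal wall and the right testis stayed in the scrotum as the control, and both were taken 10 days later (labelled WT and Cryptorchid). Both groups carry the reporter that the sort used, and the tubules of cryptorchid testes were digested at a higher temperature than those of control testes, so that digestion and condition cannot be told apart. Each library was made by Smart-seq2, a full-length cDNA method without molecular identifiers, from RNA of about 200 cells, and the sources used here do not tie libraries to mice, so that *P*-values measure the spread between libraries. The markers of undifferentiated spermatogonia *Gfra1*, *Ret* and *Zbtb16* had means of 7.88, 8.37 and 8.33 log2 RPM (reads scaled to library totals, on the log2 scale) in control libraries and of 8.40, 8.61 and 8.54 in cryptorchid libraries. They belong to a list of 16 such markers, of which 8 had a higher and 8 a lower cryptorchid mean. Log2 differences in the list ran from -1.35 (*Neurog3*) to 1.19 (*T*), with a median of -0.01, so that the genes named do not speak for the list.

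Reads on genes numbered 4511730 to 24345368 per control library (median 7603202) and 3306771 to 20027902 per cryptorchid library (median 4611830). Replicates 1 to 3 of both groups stood apart from replicates 4 and above in the values of many genes. Reads on genes numbered 6800360 to 24345368 in replicates 1 to 3 and 3306771 to 5481947 in replicates 4 and above, without overlap. Their share of the library total used for scaling was 74.5 to 94.0% and 94.8 to 99.9%. This division into 6 and 6 libraries was found in the values and its origin was not tested. For the called genes, *Cfap300*, *Dnah8*, *Rsph4a*, *Cfap126* and the tektins, differences are therefore also given within each set. In bulk RNA, fewer cells of a type and less RNA per cell cannot be told apart.

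Many axoneme genes carry an X-box, the site bound by RFX transcription factors, which act on ciliary genes. Promoters (250 bases before to 50 bases after the start, RefSeq, GRCm38.p6) were held for 62 of the 76 genes. The X-box half-site GTTGCC was found on either strand in 22 of these 62 promoters (35.5%), against 14.1% of 16802 genes with a promoter. The full X-box palindrome, in which 2 half-sites face each other, was found in 1 of the 62 (*Cfap298*), against 0.512% of all. TGACGTCA, the cAMP response element bound by CREM, a factor of haploid germ cells, was found in *Dnah6*, *Spag4* and *Spag6l* (4.84%, against 2.63% of all). A match is a description of letters in this window and not a measured site. The 200 bases before the start are shown for genes on which the results turn, read 5′ to 3′ on the strand of the gene, with the motif named in capitals and any other match in lower case. *Cfap298* holds the palindrome (chr16:90934850-90935049, minus strand), *Tekt1* holds 2 half-sites, of which the first reads on the opposite strand (chr11:72361883-72362082, minus strand), *Cfap300*, whose groups did not overlap, holds 1 half-site on the opposite strand (chr9:8042876-8043075, minus strand), *Spag4*, which moved with spermatid mRNA, holds the cAMP response element (chr2:156065013-156065212, plus strand), and *Rsph6a*, the gene called lower, holds none of these motifs and so shows no capitals (chr7:19054487-19054686, plus strand).
Cfap298: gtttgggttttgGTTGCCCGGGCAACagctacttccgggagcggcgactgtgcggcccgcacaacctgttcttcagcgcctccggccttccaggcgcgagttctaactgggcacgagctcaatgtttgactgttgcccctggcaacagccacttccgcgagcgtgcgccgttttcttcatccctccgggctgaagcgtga
Tekt1: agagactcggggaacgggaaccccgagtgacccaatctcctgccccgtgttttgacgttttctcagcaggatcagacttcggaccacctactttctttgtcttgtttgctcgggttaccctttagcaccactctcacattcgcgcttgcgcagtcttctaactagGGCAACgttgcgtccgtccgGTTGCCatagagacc
Cfap300: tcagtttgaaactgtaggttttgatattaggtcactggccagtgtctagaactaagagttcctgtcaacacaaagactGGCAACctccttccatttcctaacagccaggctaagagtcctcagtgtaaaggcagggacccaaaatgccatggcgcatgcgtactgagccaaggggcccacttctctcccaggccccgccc
Spag4: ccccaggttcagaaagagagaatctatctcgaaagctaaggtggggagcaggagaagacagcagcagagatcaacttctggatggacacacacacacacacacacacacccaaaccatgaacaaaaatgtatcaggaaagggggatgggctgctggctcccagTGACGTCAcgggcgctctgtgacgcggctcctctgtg
Rsph6a: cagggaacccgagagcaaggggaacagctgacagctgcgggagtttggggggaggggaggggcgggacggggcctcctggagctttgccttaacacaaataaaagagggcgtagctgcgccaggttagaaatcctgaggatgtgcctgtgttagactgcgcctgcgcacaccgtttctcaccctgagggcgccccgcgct
The median log2 difference between groups was 0.16 for the 22 genes with a half-site and 0.03 for the 40 without.

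Axoneme mRNA was present in both groups. Of the 76 genes, 74 passed the limit on low values (log2 of the mean RPM above -1). The other 2 are a pair of *Spag11* genes, which code for epididymal defensin-like proteins. *Spag11a* had no read in any library and *Spag11b* had 10 reads in cryptorchid replicate 1 and none elsewhere. Per length of exon, the highest level was that of *Rsph1*, a radial spoke head protein, with 86.3 ± 57.3 RPKM (RPM divided by exon length in kilobases, SD, n=12 libraries). It was followed by *Rsph9* (48.5 ± 14.4), *Cfap300* (43.8 ± 15.1), *Cfap77* (40.6 ± 11.8) and *Cfap298* (39.3 ± 12.6). Next came *Spag7* (38.7 ± 21.7), of the group outside the axoneme, and *Tekt2* (37.5 ± 24.1). Neighbours in this order differed by less than the larger of their SDs. The dynein heavy chain with the highest level per length was *Dnah14* (11.7 ± 3.45), which shares exon bases with *Lbr* on the other strand, whereas *Dnah5* was at 1.15 ± 0.778.

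Between groups, the axoneme genes changed little as a whole in the main fit, which held no term for library set or replicate number. At 2-fold and an unadjusted limma *P*-value of 0.05, 4 of the 74 genes were higher and 1 was lower in cryptorchid spermatogonia. Over all 16932 genes tested, 3.56% were called higher and 2.36% lower, and the counts of axoneme genes were near this background. With each library centred on its median, 2 were higher and 3 lower (3.14% and 2.96% of all genes). A term for the library set gave 2 higher and 5 lower (3.43% and 3.75%). The library number as a block gave 4 higher and 13 lower (4.59% and 5.32%), though no pairing of libraries is established. In the main limma fit, an unadjusted *P*-value under 0.05 was found for 6 of the 74, against 9.48% of all genes. No axoneme gene had a Benjamini-Hochberg adjusted *P*-value under 0.05 in the main fit, against 0.00591% of all genes in each direction. With the block, 4 passed this adjusted limit in each direction (2.26% and 3.35% of all genes). With array weights, 4 higher and 0 lower passed it (1.49% and 1.32%). A higher cryptorchid mean was found for 45 of the 74 genes (56.7% of all genes), and the median log2 difference was 0.11, beside 0.10 over all genes. With the 4 tested *Spag* genes outside the axoneme left out, the median of the other 70 was 0.14. Replicates 4 and above were 2 of the 5 control and 4 of the 7 cryptorchid libraries. With the term for the library set the median of the 74 genes was -0.03, beside 0.04 over all genes.

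**Figure D1:**
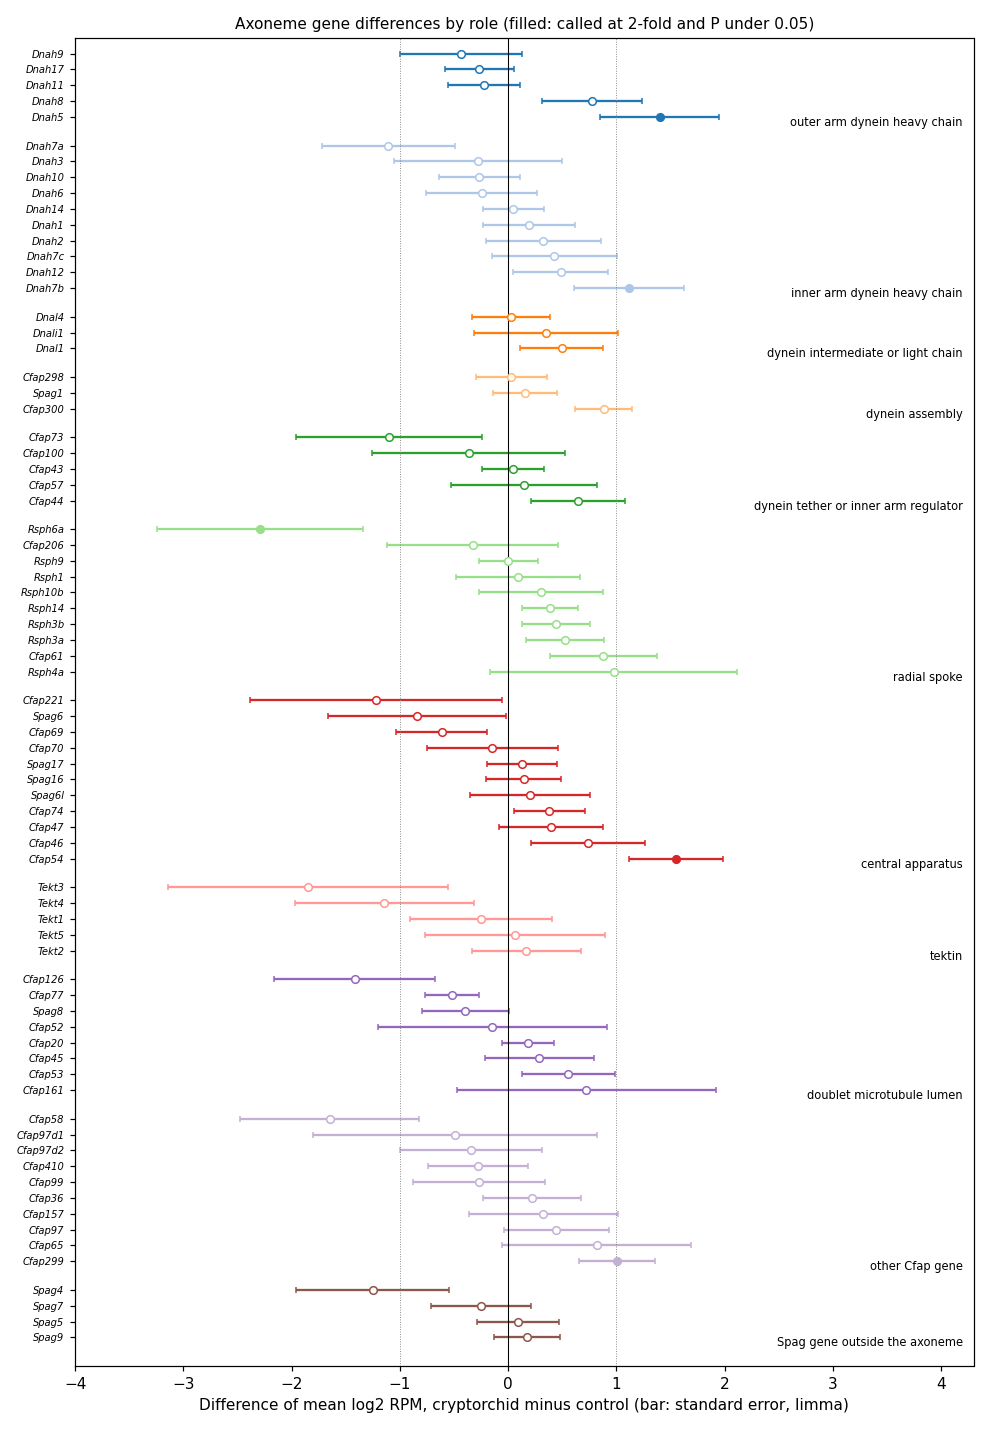
Difference of mean log2 RPM (cryptorchid minus control, x axis) with its limma standard error for the 74 axoneme genes tested, grouped by role. Filled points are the 5 called genes, and other genes are open.

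*Cfap54*, a protein of the central apparatus, was the axoneme gene with the smallest *P*-value. It is on chromosome 10 of GRCm38 from 92775619 to 93081618. Control replicates 1 to 5 had 4.19, 3.05, 5.82, 5.34 and 5.65 log2 RPM, and the cryptorchid libraries ran from 5.47 to 7.08 with a median of 6.57. The lowest cryptorchid libraries were within the control range and the other 5 libraries lay at or above 6.48. The mean was 4.81 ± 1.17 for the 5 control and 6.36 ± 0.568 for the 7 cryptorchid libraries (SD). This log2 difference of 1.55, or 2.93-fold, had a standard error of 0.432 and an adjusted *P*-value of 0.228 in limma, and the exact two-sided rank sum *P*-value was 0.0177. The log2 difference was 1.59 in replicates 1 to 3 and 1.18 in replicates 4 and above. This gene kept its call in each of 25 alternative fits.

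*Cfap300*, which takes part in the assembly of dynein arms in the cytoplasm, was the only axoneme gene whose groups did not overlap, where 0.555% of all genes had every cryptorchid library above the control libraries and 0.283% every one below. Control replicates had 5.91, 5.39, 4.65, 5.75 and 5.87 log2 RPM, and cryptorchid libraries 6.01 to 6.70 with a median of 6.36. The gap between the highest control and the lowest cryptorchid library was small beside the spread of the controls. Means were 5.51 ± 0.525 for control and 6.40 ± 0.265 for cryptorchid libraries (SD). Their log2 difference of 0.88 is below 2-fold (standard error 0.266, adjusted *P*=0.280 in limma), and the exact two-sided rank sum *P*-value was 0.00253, the smallest that 5 against 7 libraries allow. It lies on chromosome 9 from 8021672 to 8042823, and between 256 and 2320 reads were counted per library. Within replicates 1 to 3 the log2 difference was 0.97, and within replicates 4 and above it was 0.67.

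Among the other dynein assembly genes, *Cfap298* and *Spag1* had log2 differences of 0.03 and 0.16. The cryptorchid *Cfap298* values ran from 4.61 to 6.35, with a mean of 5.89 ± 0.607 (SD, n=7) against 5.86 ± 0.551 (SD, n=5) in control. The difference was well within this spread.

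The outer arm heavy chains are the large motors of the outer row. *Dnah5* (chromosome 15, 28203752 to 28472052), the chain used in cilia of the airways, was called higher. Its control replicates had 1.32, 2.80, 5.07, 2.50 and 3.11 log2 RPM, and cryptorchid libraries 3.17 to 5.25 with a median of 4.39. Control replicate 3 lay among the highest cryptorchid libraries, and the other 4 control libraries were below all of them. The log2 difference was 1.40 (standard error 0.550, adjusted *P*=0.431 in limma), and 31 to 848 reads per library stood behind it. Within replicates 1 to 3 the difference was 1.51 and not called, and within replicates 4 and above it was 1.40 and called. Without control replicate 1 it was 0.99 and no longer called, and the exact two-sided rank sum *P*-value over all libraries was 0.0732.

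*Dnah8*, the counterpart of *Dnah5* in the sperm tail, had means of 5.78 ± 0.832 and 6.56 ± 1.01 log2 RPM (SD) in control and cryptorchid libraries, a difference of 0.78 that did not pass the test (adjusted *P*=0.619 in limma). Its cryptorchid values ran from 4.92 to 7.54 and overlapped with the control range of 4.79 to 6.52. The difference was 0.12 in replicates 1 to 3 and 0.995 in replicates 4 and above, and it was called higher in 2 of 25 alternative fits. *Dnah9*, *Dnah11* and *Dnah17*, the chains that pair with these in the outer arm, had log2 differences of -0.43, -0.22 and -0.27. *Dnah11* shares exon bases with *Cdca7l* and *Dnah17* with *Pgs1*, so that their reads may not be their own. None of these 3 chains passed the test.

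Of the 10 inner arm heavy chains, *Dnah7b* (chromosome 1, 46066315 to 46373546) was called higher. Control replicates had 3.11, 4.70, 6.33, 5.28 and 4.51 log2 RPM, and cryptorchid libraries 4.44 to 7.10 with a median of 6.25. The groups overlapped over most of the control range. Within replicates 1 to 3 the difference was 0.80 and not called, and within replicates 4 and above it was 1.30 and called. The log2 difference of 1.12 (standard error 0.510, adjusted *P*=0.507 in limma) kept its call in 13 of 25 alternative fits, and the exact two-sided rank sum *P*-value was 0.149. Its near-identical neighbours on chromosome 1, *Dnah7a* and *Dnah7c*, had log2 differences of -1.11 and 0.43, and reads may be split among the 3 copies, which makes the value of each uncertain.

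The inner arm chain with the highest level per length, *Dnah14*, was even between groups, at 7.48 ± 0.494 (SD, n=5) and 7.53 ± 0.451 log2 RPM (SD, n=7). *Dnah1* had 5.44 ± 0.561 and 5.63 ± 0.964. The other 6 chains of the role (*Dnah2*, *Dnah3*, *Dnah6*, *Dnah10*, *Dnah12* and *Dnah7c*) had log2 differences from -0.28 to 0.49, and none passed the test. The smaller subunits *Dnal1*, *Dnal4* and *Dnali1*, light chains of the outer and inner arms, had differences of 0.49, 0.03 and 0.35 with no call, and *Dnali1* stood out by its spread, from 1.91 to 5.63 log2 RPM in cryptorchid libraries.

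**Figure D2:**
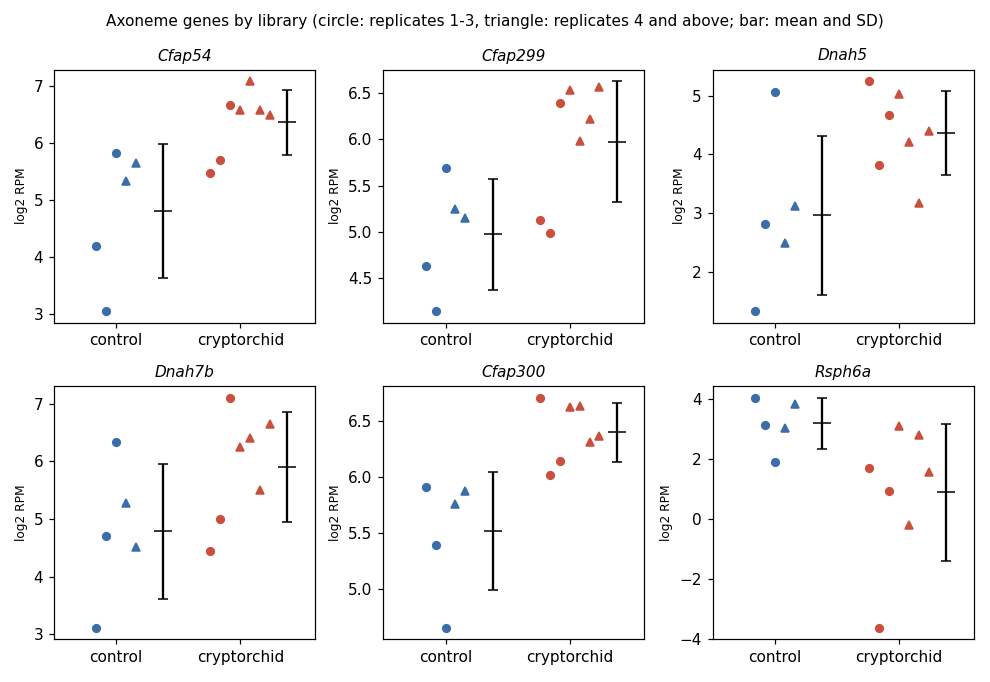
Log2 RPM (y axis) in each control and cryptorchid library for the 5 called genes and *Cfap300*, with mean and SD. Circles are replicates 1 to 3 and triangles replicates 4 and above, and every *Cfap300* value of cryptorchid lies above every control value.

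Proteins that link or regulate the inner arms (*Cfap43*, *Cfap44*, *Cfap57*, *Cfap73* and *Cfap100*) held no called gene. *Cfap43*, a tether protein whose loss gives malformed sperm tails, had the highest level per length of the role (22.1 ± 6.62 RPKM) and 7.20 ± 0.589 (SD, n=5) and 7.24 ± 0.380 log2 RPM (SD, n=7), with exon bases shared with *Itprip*. *Cfap44*, its partner, had a log2 difference of 0.64 (adjusted *P*=0.675 in limma). *Cfap73* rested on few reads, at most 80 in a library.

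Of the 10 radial spoke genes, *Rsph6a* (chromosome 7, 19054690 to 19074447), a spoke head protein of the sperm tail, was called lower. Control replicates had 4.04, 3.14, 1.90, 3.03 and 3.85 log2 RPM, and cryptorchid libraries -3.63 to 3.11 with a median of 1.58. Cryptorchid replicate 2 had no read and replicate 5 had 3 reads, and the groups overlapped between 1.90 and 3.11. The log2 difference was -2.29 (standard error 0.953, adjusted *P*=0.464 in limma; exact two-sided rank sum *P*=0.0177), and the value of the library without reads enters it. Without cryptorchid replicate 2 the difference was -1.53 and still called, and without control replicate 1 or 5 it was -2.08 and -2.13 and no longer called. The difference was -3.36 and called in replicates 1 to 3, and -1.61 and not called in replicates 4 and above.

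*Rsph4a*, the spoke head counterpart of *Rsph6a* in other motile cilia, had different means in the library sets, with overlapping values. In replicates 1 to 3 it had a mean of 2.86 ± 1.79 log2 RPM (SD, n=6), and in replicates 4 and above -0.23 ± 1.42 (SD, n=6). Between conditions the difference was 0.98 (adjusted *P*=0.824 in limma), and 0 to 754 reads were counted per library. In each set the cryptorchid mean was higher, by 1.59 and 1.51. This gene was singled out after its values were seen.

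The abundant spoke genes were even between groups. *Rsph1* had 6.47 ± 1.12 (SD, n=5) and 6.56 ± 1.28 log2 RPM (SD, n=7), and *Rsph9*, a further spoke head protein, had 6.23 ± 0.473 and 6.23 ± 0.377. *Rsph3a* and *Rsph3b*, near-identical copies that may share reads, had log2 differences of 0.52 and 0.44. Of the 10 genes, 8 had a higher mean in cryptorchid, and none of the 8 was called.

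In the central apparatus, 1 of 11 genes was called, *Cfap54*. *Spag17*, a protein of the same apparatus, had the highest level per length (10.5 ± 3.66 RPKM) and 6.32 ± 0.545 (SD, n=5) and 6.44 ± 0.605 log2 RPM (SD, n=7), with exon bases shared with *Wdr3*. The other differences ran from -1.22 (*Cfap221*, at most 198 reads) to 0.74, with a median of 0.15 over the 11 genes. *Spag6* and its near copy *Spag6l* had differences of -0.84 and 0.20.

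The tektins form filaments inside the doublets, and none was called in the main fit. *Tekt1* (chromosome 11, 72344722 to 72362442) had 4.51, 4.56, 4.07, 6.65 and 6.30 log2 RPM in control replicates and 2.98 to 7.05 in cryptorchid libraries (median 4.80). *Tekt2* (chromosome 4, 126322121 to 126325688) had 5.66, 5.03, 4.57, 6.73 and 6.80 in control and 4.25 to 7.27 in cryptorchid (median 5.80). In both genes control replicates 4 and 5 stood above control replicates 1 to 3.

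*Tekt4* (chromosome 17, 25454615 to 25476602) had 4.58, 3.78, 4.23, 5.90 and 5.22 log2 RPM in control and -0.16 to 6.30 in cryptorchid (median 2.995). *Tekt3* (chromosome 11, 63061654 to 63094964) had 3.55, 4.57, 1.97, 4.77 and 5.24 in control and -2.48 to 5.94 in cryptorchid (median 2.34), and cryptorchid replicate 5 had no read of it. The cryptorchid libraries spread over a wider range than the control libraries in both genes, with an SD of 2.17 against 0.835 in *Tekt4* and of 3.46 against 1.30 in *Tekt3*. Their log2 differences were -1.14 (standard error 0.827, adjusted *P*=0.696 in limma) and -1.84 (standard error 1.29, adjusted *P*=0.688), and those of *Tekt1*, *Tekt2* and *Tekt5* were -0.25, 0.17 and 0.07. Within replicates 1 to 3 alone both *Tekt4* and *Tekt3* were called lower, with differences of -2.28 and -3.04, whereas those within replicates 4 and above, -0.70 and -1.44, were not called. A term for the library set gave -1.54 for *Tekt4*, which was called, and -2.29 for *Tekt3*, which was not. For *Tekt1*, *Tekt2* and *Tekt5* the differences were -0.17, 0.13 and 0.24 within replicates 1 to 3 and -0.94, -0.30 and -0.85 within replicates 4 and above, with no call.

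**Figure D3:**
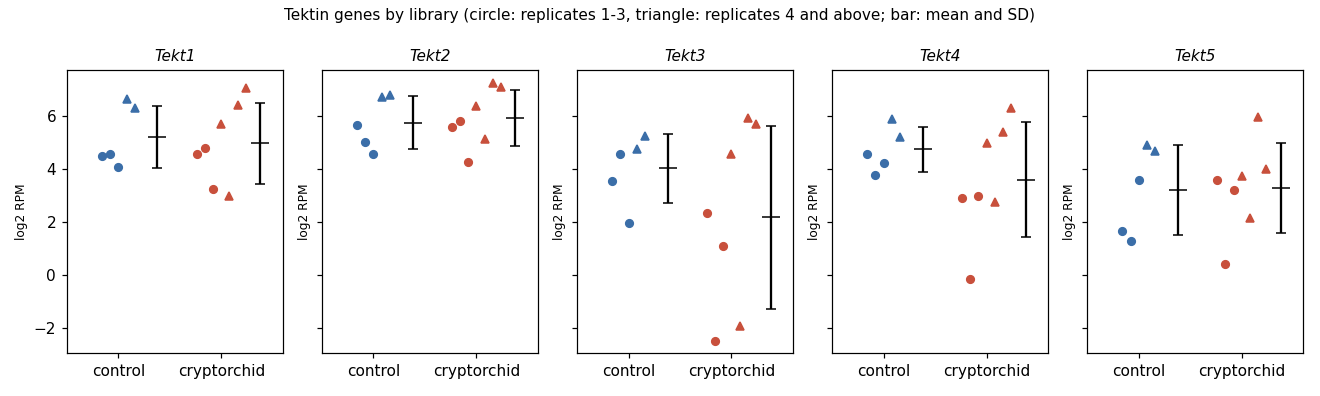
Log2 RPM (y axis) of the 5 tektin genes in each control and cryptorchid library, with mean and SD. Circles are replicates 1 to 3 and triangles replicates 4 and above. *Tekt3* and *Tekt4* reach their lowest values in cryptorchid libraries, at -2.48 and -0.16.

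The other doublet lumen genes held no call in the main fit. *Cfap20*, a protein of the inner junction of the doublet, was steady at 6.97 ± 0.383 (SD, n=5) and 7.16 ± 0.258 log2 RPM (SD, n=7). *Cfap77* had 6.98 ± 0.300 and 6.46 ± 0.393, a log2 difference of -0.52 that did not reach the threshold (adjusted *P*=0.535 in limma). *Cfap126*, named after its values were seen, had a difference of -1.42 (adjusted *P*=0.566 in limma), with -1.79 in replicates 1 to 3 and -1.74 in replicates 4 and above. It was called lower in 9 of 25 alternative fits, among them those with median centring, quantile normalization, array weights, voom on recovered reads and the term for the library set. *Cfap58*, a *Cfap* gene of no other role and likewise named after its values were seen, was called lower in 10 of them.

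Among 10 *Cfap* genes placed in no other role, *Cfap299* (chromosome 5, 98329304 to 98802047) was called higher. Control replicates had 4.63, 4.14, 5.69, 5.25 and 5.15 log2 RPM, and cryptorchid libraries 4.99 to 6.57 with a median of 6.22. Most cryptorchid libraries lay above the control range and 2 lay within it. The log2 difference of 1.003 (standard error 0.351, adjusted *P*=0.378 in limma) was just past 2-fold. It was 0.94 with median centring, 0.98 with log2(RPM + 1) and 0.68 in replicates 1 to 3, in each of which the gene was not called, and 1.13 in replicates 4 and above, where it was. The call was kept in 13 of 25 alternative fits. *Cfap36* had 6.21 ± 0.751 (SD, n=5) and 6.43 ± 1.03 (SD, n=7).

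The *Spag* genes outside the axoneme include *Spag5*, a mitotic spindle protein, and *Spag9*, a scaffold of JNK signalling. *Spag5* had 5.63 ± 0.761 (SD, n=5) and 5.72 ± 0.698 log2 RPM (SD, n=7), and *Spag9* had 5.64 ± 0.445 and 5.81 ± 0.521. Neither was called, nor were *Spag4* and *Spag7*, with log2 differences of -1.25 (adjusted *P*=0.603 in limma) and -0.25.

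A sorted fraction can hold mRNA of later germ cells, and 14 spermatid markers, such as the protamines *Prm1* and *Prm2* that pack sperm DNA, were followed by library. Their summed level ran from 766 to 4114 RPM in control libraries (median 1795) and from 36.7 to 2763 in cryptorchid libraries (median 533), and 6 of the 14 were called lower, with a median log2 difference of -2.26. None was at 0 in every library, and the sort took GFRa1+/KIT- cells in both groups. The summed level of the markers also differed by library set. It was 766 to 1795 RPM in control replicates 1 to 3 and 3493 to 4114 in control replicates 4 and above. In the corresponding cryptorchid libraries it was 36.7 to 533 and 194 to 2763. The 14 spermatocyte markers had 0 calls in limma, 1 gene (*Sycp2*) at an unadjusted *P*-value under 0.05 and a median of 0.46. Of 6 markers of multiciliated cells 5 were tested with 0 calls, and their summed level was 23.0 to 72.7 RPM in control and 15.6 to 112 in cryptorchid.

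Some axoneme genes moved with spermatid mRNA across the 12 libraries. The Pearson correlation r of log2 RPM with the log2 summed level of the 14 markers was above 0.8 in 8 of the 74 genes, against 3.39% of all genes, and above 0.5 in 23, against 12.8%. With the *Spag* genes outside the axoneme left out, r was above 0.8 in 7 and above 0.5 in 22 of the other 70. Correlations were computed for 16918 genes, and a permutation *P*-value adjusted over all of them was under 0.05 for 7 of the 74 genes (3.57% of all genes). These include *Spag4*, which is of the group outside the axoneme. These genes are named after their values were seen. The permutations shuffled all 12 libraries, although the marker sum differed with condition and library set. Their *P*-values do not separate a relation to the markers from these differences. *Cfap126* had r=0.93 and Spearman's rho=0.91 (permutation *P*=3e-05 and 0.00011, adjusted 0.00315 and 0.0121), and *Spag4*, a nuclear envelope protein of spermatids, had r=0.91 and rho=0.91 (permutation *P*=2e-05 and 0.00012, adjusted 0.00256 and 0.0125). *Tekt4* had r=0.91 and rho=0.81 (permutation *P*=0.0001 and 0.00199, adjusted 0.00677 and 0.0735). *Rsph6a* had r=0.89 and rho=0.76 (permutation *P*=0.00039 and 0.006, adjusted 0.0173 and 0.144).

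*Tekt3*, *Cfap97d1*, *Cfap58* and *Cfap206* followed with r of 0.84, 0.84, 0.83 and 0.81 (permutation *P*=0.00068, 0.00155, 0.00108 and 0.00248, adjusted 0.0254, 0.0451, 0.0352 and 0.0631) and rho of 0.75, 0.72, 0.77 and 0.66 (permutation *P*=0.00661, 0.0101, 0.00489 and 0.0214, adjusted 0.153, 0.192, 0.129 and 0.293). By rho, *Cfap126* and *Spag4* alone among the 8 had an adjusted *P*-value under 0.05. Cryptorchid replicates 2 and 5 were farthest from the median of spermatid mRNA, and without them r was 0.87 for *Cfap126*, 0.86 for *Spag4*, 0.74 for *Tekt4*, 0.64 for *Rsph6a* and 0.56 to 0.67 for the other 4. Within replicates 1 to 3 (n=6) it was 0.97, 0.93, 0.98 and 0.91 for *Cfap126*, *Spag4*, *Tekt4* and *Rsph6a*, and within replicates 4 and above (n=6) 0.88, 0.93, 0.76 and 0.92. Within the 7 cryptorchid libraries it was 0.91, 0.90, 0.93 and 0.90. All 8 genes had a lower mean in cryptorchid. The marker sum was itself lower there, so that picking genes by a high r favours a lower mean, and this is not a separate result. The part of spermatid mRNA in their differences was not tested.

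For the genes called higher, r was -0.13 (*Cfap54*), 0.08 (*Cfap299*), -0.40 (*Dnah5*) and -0.11 (*Dnah7b*), and for *Cfap300* it was -0.30 (permutation *P*=0.694, 0.803, 0.196, 0.741 and 0.341). The corresponding rho values were -0.29, 0.06, -0.45, -0.23 and -0.47 (permutation *P*=0.367, 0.868, 0.140, 0.470 and 0.128). Values of r over the 12 libraries differed from those within parts of them. Within replicates 1 to 3 (n=6) r was -0.32, -0.002, -0.31, -0.04 and -0.50, in the same order of genes. Within replicates 4 and above (n=6) it was -0.82, -0.49, -0.67, -0.78 and -0.80. Within the 7 cryptorchid libraries it was 0.49, 0.81, -0.10, 0.40 and 0.22. Over the 12 libraries, the lowest r of all axoneme genes was that of *Rsph4a*, at -0.67 with rho=-0.66 (permutation *P*=0.0165 and 0.022, adjusted 0.220 and 0.295). Without the 2 farthest libraries its r was -0.75. Within replicates 1 to 3 it was -0.47 and within replicates 4 and above -0.72 (n=6 each), and the mean of this gene differed between these sets.

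**Figure D4:**
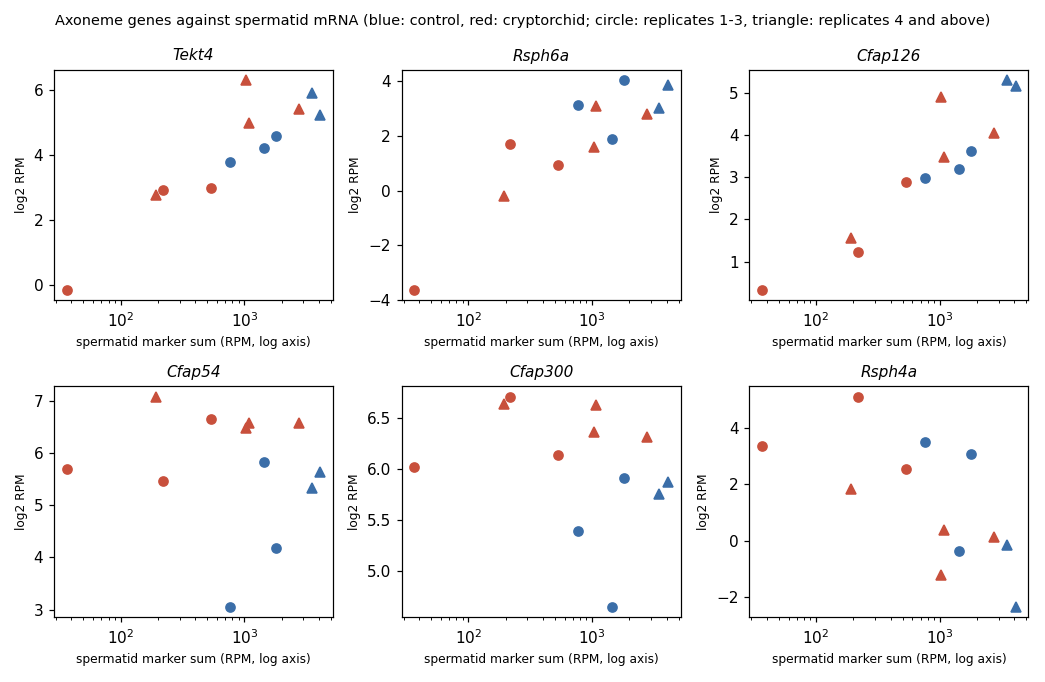
Log2 RPM (y axis) of 6 axoneme genes against the summed level of 14 spermatid markers in RPM (log x axis), 1 point per library, for control (blue) and cryptorchid (red), with circles for replicates 1 to 3 and triangles for replicates 4 and above. *Tekt4*, *Rsph6a* and *Cfap126* rise with spermatid mRNA (r=0.91, 0.89 and 0.93 over the 12 libraries). In the same libraries r was -0.13 for *Cfap54*, -0.30 for *Cfap300* and -0.67 for *Rsph4a*.

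Other tail genes, which the naming rule did not take, differed among lists. Outer dense fibres and the fibrous sheath surround the axoneme in the sperm tail. Of 14 genes listed for these and other parts of the tail, 4 were called lower (*Odf1* -2.70, *Odf2* -1.50, *Gapdhs* -1.43 and *Tcp11* -1.90 on the log2 scale) and 1 higher (*Armc2*, 1.49), with a median of -1.28. In 9 of these 14 r with spermatid mRNA was above 0.8. Of 24 intraflagellar transport genes, which carry parts into the growing tail, none was called at 2-fold in limma, 1 (*Ift80*) had an unadjusted *P*-value under 0.05, and the median was 0.24. *Iqcg* of the nexin-dynein regulatory complex (1.02) and *Iqub* of the radial spokes (1.47) were called higher, in lists of 12 and 11 genes.

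Of 16 transcription factors of cilia and haploid germ cells, *Mybl1*, the meiotic MYB factor (1.26, adjusted *P*=0.490 in limma), and *Trp73*, a factor of multiciliated cells (2.004, adjusted *P*=0.481, 0 to 87 reads per library), were called higher and none lower. Dynein subunits under other symbols (8 genes, median 0.60), assembly factors (15 tested of 16, -0.09), docking complex genes (6, -0.19) and further lumen genes (13, 0.04) held no call. Unadjusted *P*-values under 0.05 among these were those of *Wdr78*, a dynein intermediate chain, and *Enkur*, a lumen protein.

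The summed level of the 76 genes followed the library set more than the condition. In RPM it was 2138 to 2277 in control and 2114 to 2270 in cryptorchid replicates 1 to 3, and 3139 to 3393 in control and 2596 to 4221 in cryptorchid replicates 4 and above. No library of the former set reached the latter, whereas conditions overlapped within each set. Scaled to reads on genes, cryptorchid replicate 5 (2681) fell within the range of replicates 1 to 3 (2348 to 3058). The median difference between sets, replicates 4 and above minus replicates 1 to 3, was 0.82 on the log2 scale for the 74 genes and 0.33 for all genes. In 5 of the 74 genes every library of replicates 4 and above lay above every one of replicates 1 to 3, against 3.16% of all genes, and in 0 of them the reverse held, against 0.378%. These 5, named after their values were seen, were *Spag9*, *Rsph1*, *Cfap57*, *Dnali1* and *Cfap161*, with log2 differences between the sets of 0.84, 1.86, 1.87, 2.14 and 3.25. Of these, *Spag9* is of the group outside the axoneme. The median sum of the 14 spermatid markers was also higher in replicates 4 and above, at 3803 against 1442 RPM in control libraries. In cryptorchid libraries it was 1055 against 218. The part of spermatid mRNA in the set difference of the axoneme genes was not tested.

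**Figure D5:**
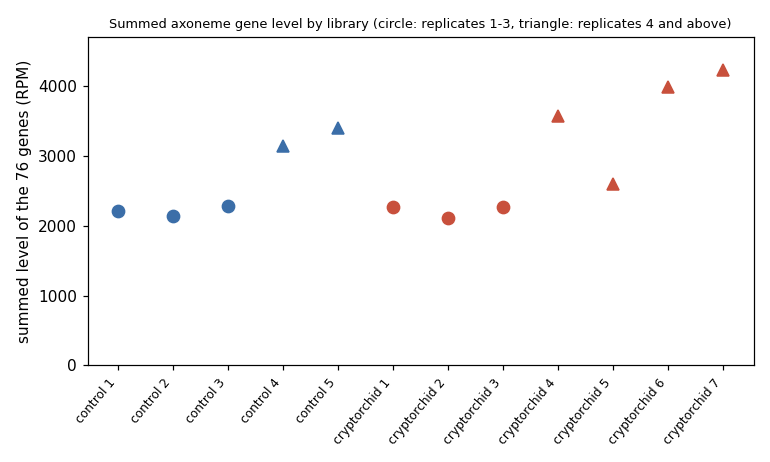
Summed level of the 76 axoneme genes in RPM (y axis) in each of the 12 libraries, control in blue and cryptorchid in red. Circles (replicates 1 to 3) sit between 2114 and 2277 and triangles (replicates 4 and above) between 2596 and 4221.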

How the data were processed

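Reads were trimmed with Trim Galore 0.6.6 and mapped to mm10 with HISAT2 2.1.0 by the authors, who used SeqMonk and the UCSC protein-coding annotation for counting and deposited log2 RPM values for 12 libraries. Whether counting used strand is not given in the sources used here. Values were read by column name, and 0 columns belonged to no sample. The lowest value of a library stands for 0.9 reads, and the reads behind other values were recovered from the steps between values, so that read numbers cover counting error only.

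Group means of log2 RPM were subtracted with no pseudocount added, and limma 3.58.1 (R 4.3.3, eBayes with a trend) was run on the 16932 genes whose mean RPM exceeded -1 on the log2 scale, called at 2-fold and a two-sided *P*-value of 0.05, and adjusted by Benjamini-Hochberg over all of them. The authors' count test was not used, since the values are not counts. The script was tested on simulated data. Correlations used 100000 permutations, which shuffled all 12 libraries without regard to condition or library set. The marker sum differs with both. Lengths and positions are those of GENCODE vM21.

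Named genes are those called or not overlapping, the 2 with the highest level in each role, and the tektins. Members, roles and lists were chosen with earlier results of these data known, and the library sets and correlations after the values were seen. The alternatives were other scalings, pseudocounts, low-value limits, weights, voom on recovered reads, the library sets, the replicate number and each library left out.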

Additional observations from a re-analysis of the deposited data

Results flagged for a closer look

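Among the genes named by rule, a single library stood apart from the rest of its group in 3 of 58 groups tested with Dixon's criterion, and chance alone flags about 1 group in 20. In cryptorchid replicate 3 *Cfap298* lay at 4.61 log2 RPM, below a range of 5.83 to 6.35 for the other cryptorchid libraries. In cryptorchid replicate 2 *Dnah1* lay at 3.52, below a range of 5.74 to 6.36. In control replicate 3 *Dnal4* lay at 3.16, below a range of 4.52 to 4.78.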

How the results depend on the processing

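The main counts were 4 axoneme genes higher and 1 lower. Each count below is set against the share of all genes called. Higher genes numbered 2 with median centring (3.14%), quantile normalization (2.7%) and a term for the library set (3.43%), and 1 in replicates 1 to 3 alone (1.7%). They numbered 5 with array weights (5.21%) and 5 in replicates 4 and above alone (3.75%). Lower genes numbered 3 with median centring (2.96%), quantile normalization (3.2%) and voom on recovered reads (3.18%), 2 with array weights (4.15%), 5 with the term for the library set (3.75%), 4 in replicates 1 to 3 alone (2.04%) and 0 in replicates 4 and above alone (4.16%, limma). Without 1 library each there were 1 to 5 higher and 0 to 4 lower genes. Of all genes, 2.96% to 4.43% were then called higher and 1.65% to 3.38% lower. Without control replicate 1, *Cfap54* was the only call (3.28% of all genes were called higher and 1.75% lower). The cause of these changes was not tested. The median log2 difference ran from -0.02 to 0.24 over these leave-outs, and was -0.03 with the set term and -0.04 in replicates 1 to 3 alone.

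A replicate block (the library number as a block in limma) gave 4 genes higher (4.59% of all genes) and 13 lower, or 17.6% of the 74 against 5.32% of all genes, so that the lower count was above the background here. An adjusted *P*-value under 0.05 was found for 4 in each direction (2.26% and 3.35% of all genes). The higher ones were *Cfap54*, *Cfap299*, *Cfap300* and *Dnah7b*, and the lower ones *Cfap126*, *Cfap58*, *Spag4* and *Tekt4*. *Tekt4* (-2.04, adjusted *P*=0.0153) and *Tekt3* (-3.30, adjusted *P*=0.0663) were among the 13, and the median was -0.13. The libraries share only a number, and no pairing is established. The correlations of same-numbered libraries were 0.35, 0.36, 0.41, 0.25 and 0.05, and 4 of 5 control libraries correlated best with their own number, a hint from the data only. With array weights, 4 higher genes (*Cfap54*, *Cfap299*, *Cfap300* and *Dnah5*) and 0 lower genes passed the adjusted limit (1.49% and 1.32% of all genes). No called gene reversed its direction. *Dnah7b* and *Cfap299* lost their calls in 12 of 25 fits, *Rsph6a* in 3 and *Dnah5* in 2. In genes with a library without reads, such as *Rsph6a* and *Tekt3*, the size of the difference depends in part on the value given to that library. With all values below the highest library floor raised to it, *Rsph6a* had a log2 difference of -2.05 and was still called lower. *Tekt3* then had -1.77 and was not called, as in the main fit.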
